A study of Mus musculus with 13 samples.

Results

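The transcripts described here are those of 9 genes, Snrnp48, Exosc8, Ttc14, Kansl1l, Phip, Brwd1, Myo7a, Gadd45gip1 and Bbip1, that had been picked for low levels in the duodenum of mice on a high-fat diet. The members were all probe sets whose platform annotation gives exactly 1 of these symbols, 23 of the 22626 probe sets that are not controls, for 9 of 12393 genes. Because they were picked on the high-fat arrays, their levels by diet are given as a description with no test, and tests are kept for genotype and for genes outside the group. Total RNA of mouse duodenum was hybridised to 13 Affymetrix arrays. The mice were wild type or K-Ras mutant (called ViRas in the titles), all of mixed strain background. From 5 weeks of age they were fed for 22 weeks, then killed. Normal diet was represented by 2 wild-type and 3 mutant arrays, high-fat diet by 2 and 2, and high-fat diet with butyrate by 1 and 3. The allele, and the promoter that drives it, are not given in the sources used here. Values are RMA levels on a log2 scale, so that a difference of 1 is a doubling, and all values by sample below are levels on that scale.

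Of the genes described, Snrnp48 and Exosc8 act on RNA. Snrnp48 encodes a protein of the U11/U12 particle, with which the minor spliceosome recognises a rare class of introns. Exosc8 encodes a subunit of the ring of the RNA exosome, the complex that trims and degrades RNA from its 3' end. Ttc14, placed beside them here, encodes a tetratricopeptide repeat protein, and no role on RNA is claimed for it. Chromatin proteins are encoded by the next 3. Kansl1l is a relative of Kansl1, the scaffold of the NSL histone acetyltransferase complex, and Phip and Brwd1 are related proteins with WD40 repeats and bromodomains, the domains that bind acetylated lysine. Phip also serves as a substrate receptor of CRL4 ubiquitin ligases. The remaining 3 belong to other cell structures. Myo7a is an unconventional myosin of actin-filled protrusions, known from the hair cells of the inner ear, Gadd45gip1 is a protein of the large subunit of the mitochondrial ribosome, and Bbip1 is a small subunit of the BBSome, a coat complex that moves membrane proteins into and out of cilia.

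The array identifiers fell into 1 number range for each diet, here called an array series. That each range was a separate run is inferred from the numbers and not stated. Diet and array series cannot be told apart in anything that follows. The array median lay between 6.04 and 6.14 on all 13 arrays. The 18S ribosomal RNA control probe sets, whose transcript is not polyadenylated, separated the 3 series: the mean of the 3 probe sets was 10.75 to 11.42 on high-fat arrays, 9.38 to 10.29 on normal diet arrays and 7.56 to 8.84 on butyrate arrays. Wild-type normal diet array 1 stood apart in the labelling spike controls (mean 11.73, against 8.91 to 9.91 on the other 12 arrays). The 3' minus 5' difference of the actin control, which reflects RNA integrity and labelling, was 0.20 to 0.42 on high-fat arrays, 0.63 to 0.73 on normal diet arrays and 0.27 to 0.70 on butyrate arrays. The same difference of the Gapdh control overlapped between the diets (-0.05 to 0.02, -0.09 to 0.02 and -0.13 to 0.22, in the same order). The mean of 8 enterocyte markers was 12.91 to 13.15 on high-fat, 12.66 to 13.06 on normal diet and 12.46 to 12.99 on butyrate arrays. That of 5 duodenal markers was 8.92 to 10.61 on high-fat arrays and 9.47 on mutant butyrate array 2, against 7.61 to 8.06 on the remaining arrays. The limma differences of these 5 genes were uneven: Slc11a2 3.22, Cybrd1 3.08, Gata4 1.07, Pdx1 0.69 and Slc40a1 0.43. The last 2 were not called, so the list mean mostly follows Slc11a2 and Cybrd1. The mean of 9 acinar pancreas markers ranged from 5.35 to 13.48 within the high-fat arrays alone. Between high-fat and other arrays limma called 3 of 8 enterocyte, 3 of 5 duodenal, 1 of 5 goblet cell and 1 of 4 B and plasma cell markers higher, 1 of 6 macrophage markers (Csf1r, -0.69) and 1 of 5 T cell markers (Cd3g, -0.74) lower, and none of 9 acinar or 3 Paneth cell markers. Of 7 smooth muscle markers Acta2 (-0.54) and Myh11 (-0.47) were lower and Des (0.59) was higher. The part of these differences in the members' levels was not tested, and in whole tissue fewer cells of a type and less RNA per cell cannot be told apart.

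Sequence upstream of the start was found for 7 of the 9 genes in the RefSeq table of GRCm38.p6. The 250 bases before the start are printed for 5 genes, to show what kind of promoter they have. In each, the probe set with the highest mean read lower on all 4 high-fat arrays than on any other array. Phip and Brwd1 each also have a probe set with the opposite pattern, described below. The sequences run 5' to 3' on the gene's strand, and capitals mark the GC box (GGGCGG or, on the other strand, CCGCCC) and the CCAAT box (CCAAT or ATTGG), which do not overlap here. The windows are chr13:38204689-38204938 (plus strand) for Snrnp48, chr3:54735365-54735614 (minus) for Exosc8, chr1:66817596-66817845 (minus) for Kansl1l, chr9:82975490-82975739 (minus) for Phip and chr16:96082429-96082678 (minus) for Brwd1. The Phip and Brwd1 windows precede starts that lie 6179 and 275 bases inside the annotated span of the gene.
Snrnp48: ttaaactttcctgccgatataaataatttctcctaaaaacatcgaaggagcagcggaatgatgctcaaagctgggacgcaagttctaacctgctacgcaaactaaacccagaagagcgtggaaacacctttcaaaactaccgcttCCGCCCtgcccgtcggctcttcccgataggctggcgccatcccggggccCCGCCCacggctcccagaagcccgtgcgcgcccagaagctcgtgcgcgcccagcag
Exosc8: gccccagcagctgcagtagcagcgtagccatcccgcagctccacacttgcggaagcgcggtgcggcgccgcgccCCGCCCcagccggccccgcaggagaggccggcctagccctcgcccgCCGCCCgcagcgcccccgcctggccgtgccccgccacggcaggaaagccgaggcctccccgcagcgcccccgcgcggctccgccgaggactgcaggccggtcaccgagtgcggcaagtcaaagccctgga
Kansl1l: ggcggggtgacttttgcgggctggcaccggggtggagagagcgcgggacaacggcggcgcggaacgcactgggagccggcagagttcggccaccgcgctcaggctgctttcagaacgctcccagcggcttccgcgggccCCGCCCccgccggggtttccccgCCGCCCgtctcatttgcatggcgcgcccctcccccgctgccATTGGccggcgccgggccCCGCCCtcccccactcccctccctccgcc
Phip: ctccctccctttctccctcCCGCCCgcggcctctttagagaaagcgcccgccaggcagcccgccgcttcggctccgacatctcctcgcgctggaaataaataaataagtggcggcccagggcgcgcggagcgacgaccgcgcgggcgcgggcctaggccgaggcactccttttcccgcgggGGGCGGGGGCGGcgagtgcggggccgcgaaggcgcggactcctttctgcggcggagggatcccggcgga
Brwd1: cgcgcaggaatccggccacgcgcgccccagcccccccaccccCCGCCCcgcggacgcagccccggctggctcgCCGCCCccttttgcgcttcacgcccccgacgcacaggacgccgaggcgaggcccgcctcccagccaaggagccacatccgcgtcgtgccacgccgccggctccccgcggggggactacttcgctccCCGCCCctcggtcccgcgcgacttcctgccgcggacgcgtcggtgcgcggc
All 5 hold 2 or 3 GC boxes, and Kansl1l alone among them holds a CCAAT box. GC content was 57.2% for Snrnp48 and 72.4% to 79.6% for the other 4, against a median of 58.4% over the 9888 windows of genes on the array. At least 1 GC box was present in 7 of 7 members' windows, against 53.1% of all windows, a CCAAT box in 2 of 7 (35.9%), a TATA box (TATAAA or TTTATA) in 1 of 7 (9.13%) and an ETS core (CCGGAA or TTCCGG) in 0 of 7 (19.0%). These matches describe the letters of the windows and show no binding.

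Snrnp48 had the largest separation of the group. Probe set 1437180_at read 5.19 and 6.22 on the wild-type and 5.91 and 5.73 on the mutant high-fat arrays. On normal diet it read 7.55 and 7.59 in wild type and 7.81, 7.65 and 7.53 in mutants, and with butyrate 8.05 in wild type and 7.86, 7.81 and 8.04 in mutants. Every high-fat array thus lay at least 1.31 below every other array, and the mean of the 4 was 4.01-fold lower than that of the other 9. The remaining 3 probe sets of the gene did not repeat this size. Probe set 1425319_s_at kept the separation with a smaller difference (5.37 to 5.61 on high-fat arrays, 5.75 to 6.24 on the others). In 1429908_at the ranges overlapped (difference of means -0.25), and in 1423633_at the high-fat mean was the higher one (6.60, against 6.45 on normal diet and 6.33 with butyrate). The name ending _s_at marks probe sets whose probes match more than 1 transcript.

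Exosc8 was measured by a single probe set, 1420115_at. It read 4.83 and 4.64 in wild type and 4.63 and 5.34 in mutants on high-fat diet, 5.50 and 5.65 in wild type and 5.77, 5.65 and 5.92 in mutants on normal diet, and 7.08 in wild type and 7.02, 6.54 and 7.69 in mutants with butyrate. The 3 diets did not overlap, and the larger step was the one between normal diet and butyrate (1.38), not the one between high-fat and normal diet (-0.84). The distance between the highest high-fat array, mutant array 2, and the lowest normal diet array was 0.16.

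Ttc14 followed another order. Its probe set 1456430_at read 4.21 and 4.31 in wild type and 4.40 and 4.73 in mutants on high-fat diet, 6.18 and 5.86 in wild type and 5.97, 5.89 and 5.83 in mutants on normal diet, and 5.19 in wild type and 4.96, 4.62 and 5.17 in mutants with butyrate. Normal diet stood highest, and mutant high-fat array 2 lay above mutant butyrate array 2, so the description "low only on high-fat arrays" did not hold for this gene. In the other 2 probe sets, 1426544_a_at and 1432130_a_at, high-fat means were slightly above those of the other arrays (by 0.18 and 0.20), with overlap.

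**Figure D1:**
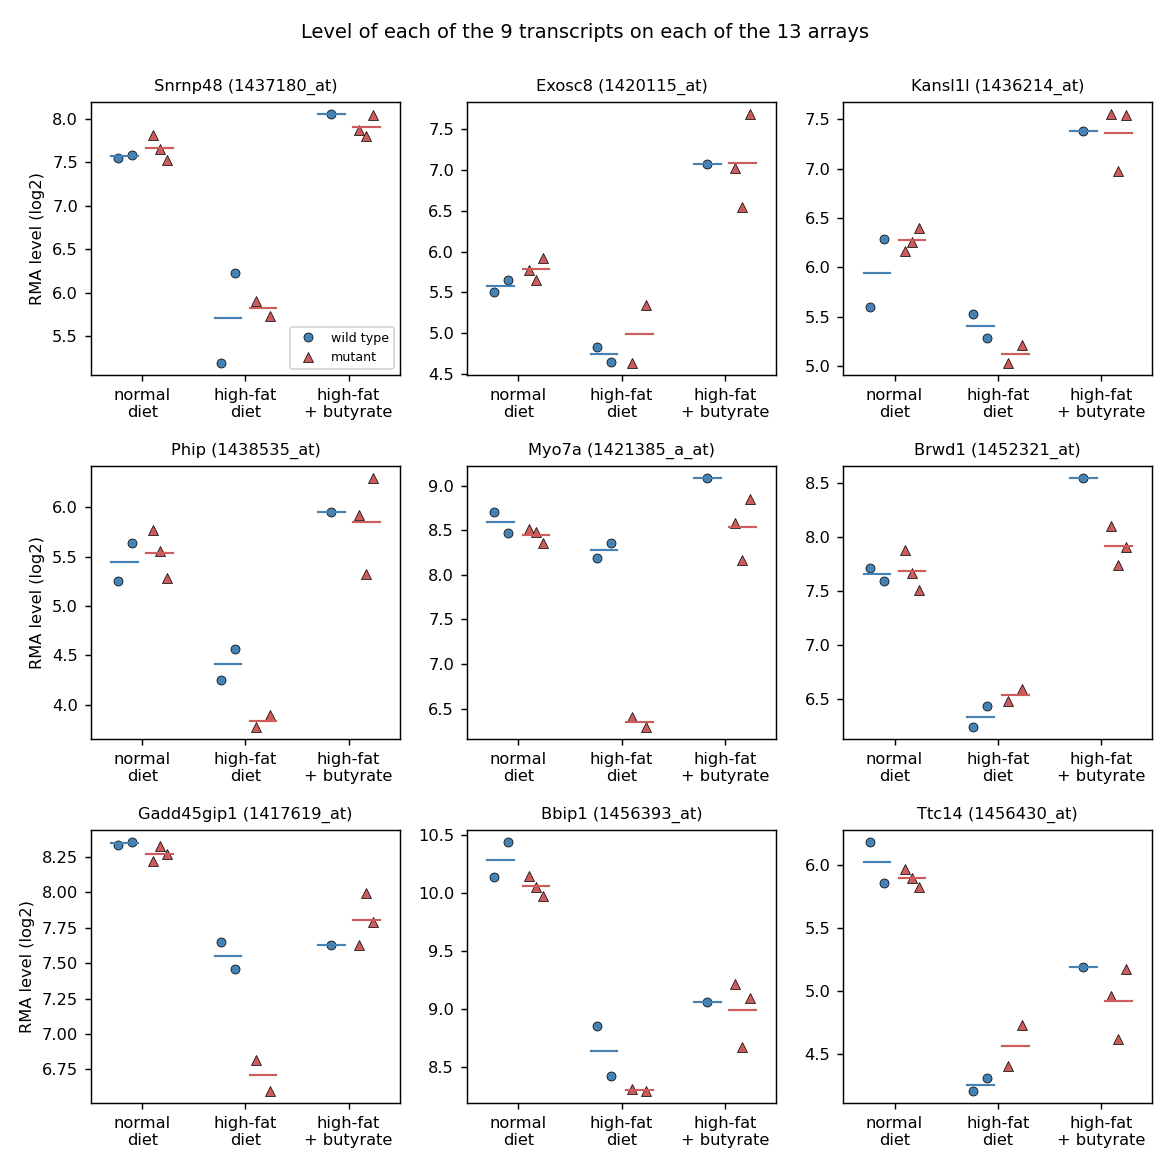
RMA level (log2) of the probe set with the highest mean for each of the 9 genes on each of the 13 arrays, by diet, with wild-type arrays as circles, mutant arrays as triangles and group means as lines. For Snrnp48 the high-fat arrays read 5.19 to 6.22 and the others 7.53 to 8.05, whereas for Myo7a only the mutant high-fat arrays (6.29 and 6.40) stand apart.

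Among the chromatin genes, Kansl1l read 5.52 and 5.29 in wild type and 5.03 and 5.21 in mutants on high-fat diet with 1436214_at. Normal diet arrays read 5.60 and 6.28 in wild type and 6.16, 6.25 and 6.40 in mutants, and butyrate arrays 7.39 in wild type and 7.55, 6.98 and 7.55 in mutants. The high-fat arrays were the lowest, but wild-type normal diet array 1 lay only 0.07 above the nearest of them, and the step from normal diet to butyrate (1.23) again exceeded that between high-fat and normal diet (-0.88). A second probe set, 1455602_x_at, correlated with the first over the 13 arrays (Pearson r = 0.95) and read 3.75 to 4.86 on high-fat and 4.86 to 6.51 on other arrays. Its separation was lost under quantile normalization, and the ending _x_at marks probes that may bind other transcripts. The dim set 1436213_a_at (2.26 to 2.52 on high-fat, 2.46 to 3.09 on other arrays) overlapped.

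Phip gave opposite readings in different probe sets. With 1438535_at the high-fat arrays were low, at 4.25 and 4.57 in wild type and 3.78 and 3.90 in mutants, against 5.25 and 5.64 in wild type and 5.77, 5.56 and 5.29 in mutants on normal diet. Butyrate arrays read 5.95 in wild type and 5.92, 5.32 and 6.29 in mutants. With 1423432_at the same 4 arrays were the highest, at 6.31 and 6.55 in wild type and 5.88 and 6.09 in mutants, while the other 9 lay between 3.17 and 4.65. The first set was 2.91-fold lower on high-fat arrays than on the other 9, and the second was higher by 2.30, with r = -0.83 between them over the 13 arrays. The other 2 sets, 1425721_at and 1451805_at, differed by -0.12 and -0.08 with overlap. No single direction can therefore be given for the Phip gene. Of 4956 genes with several probe sets, 75 (1.51%) had 1 set with all high-fat arrays below the other 9 and another with all above. Phip and Brwd1 are among them, Brwd1 through a dim set. Phip was picked for a low set, so this share does not measure how unusual its opposition is.

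Brwd1, the relative of Phip, also split. Probe set 1452321_at read 6.24 and 6.43 in wild type and 6.48 and 6.59 in mutants on high-fat diet, 7.71 and 7.60 in wild type and 7.88, 7.66 and 7.51 in mutants on normal diet, and 8.54 in wild type and 8.10, 7.74 and 7.90 in mutants with butyrate. A gap of 0.92 separated the highest high-fat array from the lowest other array. Set 1427322_at ran the same way (6.43 to 6.85 against 6.94 to 8.40, r = 0.88 with the first). In contrast, the dim set 1452503_a_at (mean 3.84, at percentile 19.4 of all probe sets) was highest on the high-fat arrays (4.03 to 4.24, against 3.40 to 3.90). In 1452322_a_at the high-fat mean was above the others by 0.31 with overlap. Both of these sets carry the ending _a_at, given to probe sets that match several transcripts of the same gene.

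**Figure D2:**
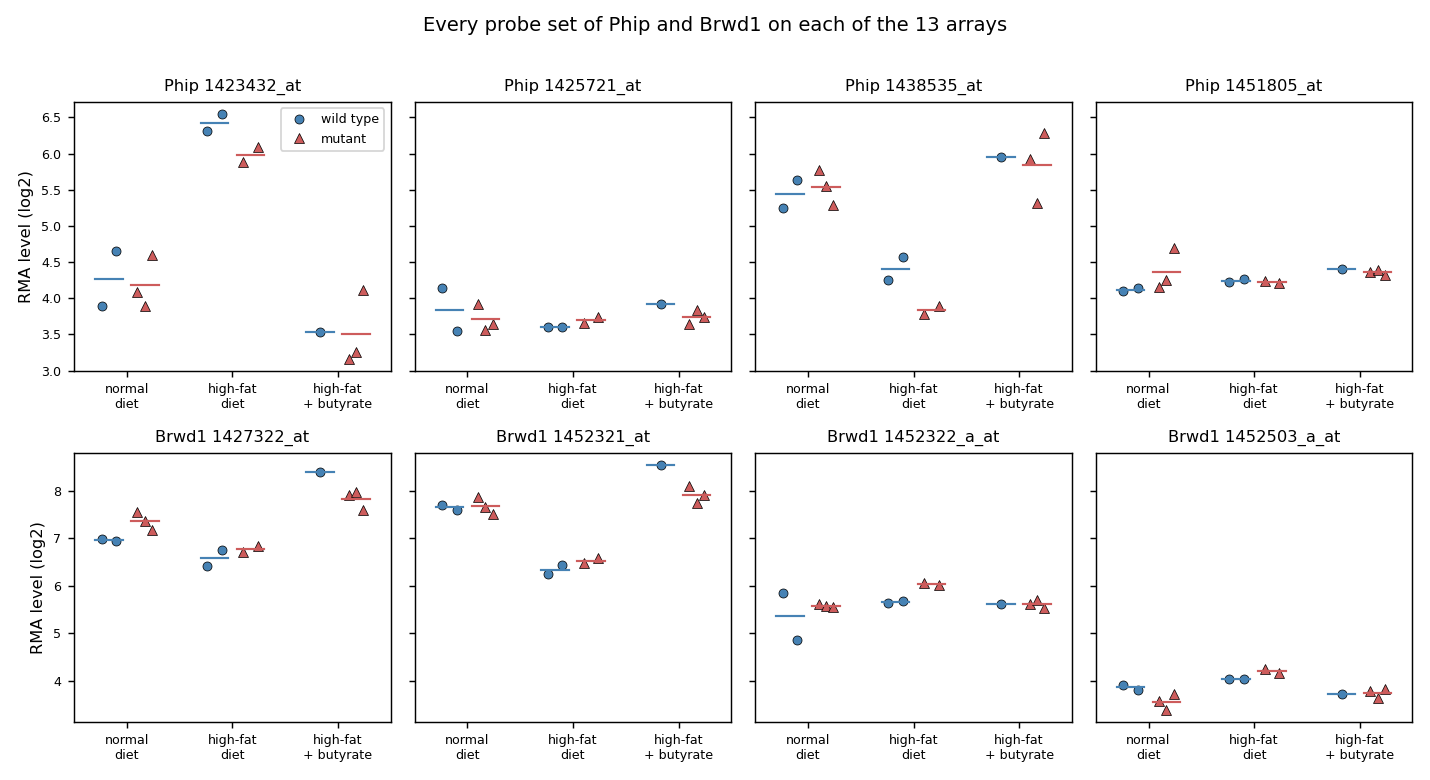
RMA level (log2) of every probe set of Phip (top) and Brwd1 (bottom) on each of the 13 arrays, by diet and genotype, with group means as lines and 1 vertical scale per gene. Phip 1438535_at is lowest and 1423432_at highest on the 4 high-fat arrays, and Brwd1 1452321_at is lowest where 1452503_a_at is highest.

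Myo7a was low on mutant high-fat arrays alone. Its single probe set 1421385_a_at read 6.40 and 6.29 on these 2 arrays, and 8.19 and 8.36 on the wild-type high-fat arrays. On normal diet it read 8.71 and 8.47 in wild type and 8.51, 8.48 and 8.36 in mutants, and with butyrate 9.08 in wild type and 8.58, 8.17 and 8.85 in mutants. The wild-type high-fat arrays fell within the range of the 9 other arrays (8.17 to 9.08), so the label describes this gene in mutants only. The mean difference between high-fat and normal diet arrays was -2.10 in mutants and -0.31 in wild type.

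Gadd45gip1 and Bbip1 were lower on butyrate arrays too. For Gadd45gip1 (1417619_at) the high-fat arrays read 7.65 and 7.46 in wild type and 6.82 and 6.60 in mutants, the normal diet arrays 8.34 and 8.35 in wild type and 8.22, 8.32 and 8.27 in mutants, and the butyrate arrays 7.63 in wild type and 7.63, 8.00 and 7.79 in mutants. The wild-type high-fat and butyrate arrays overlapped, and the mutant high-fat arrays stood below all. Its dim second set, 1448776_at, was highest on high-fat arrays (3.69 to 4.15, against 3.51 to 3.69), by a margin that quantile normalization removed.

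For Bbip1, measured by 1456393_at alone, the high-fat arrays read 8.85 and 8.42 in wild type and 8.31 and 8.29 in mutants. Normal diet gave 10.14 and 10.44 in wild type and 10.15, 10.05 and 9.98 in mutants, and butyrate 9.06 in wild type and 9.22, 8.67 and 9.09 in mutants. Normal diet stood at least 0.76 above every array of the other diets, and wild-type high-fat array 1 lay above mutant butyrate array 2. Bbip1 thus resembled Ttc14, with which it correlated at r = 0.93 over the 13 arrays.

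Counted by highest-mean probe set, 5 of the 9 genes (Snrnp48, Exosc8, Kansl1l, Phip and Brwd1) had all 4 high-fat arrays below the other 9, and Myo7a, Gadd45gip1, Bbip1 and Ttc14 did not. Over all genes 9.17% met that description, and since the members were chosen on it nothing is read from the count. Of the 23 probe sets, 8 lay wholly below (8.81% of all probe sets), 3 wholly above (8.21%) and 12 overlapped. Leaving out wild-type high-fat array 1 gave 10 wholly below, with Gadd45gip1 1417619_at and Bbip1 added, and leaving out mutant butyrate array 2 gave 10, with Bbip1 and Ttc14 1456430_at added. Leaving out mutant high-fat array 2 gave 11, with Ttc14 1456430_at, Snrnp48 1429908_at and Kansl1l 1436213_a_at added. The median difference between high-fat and other arrays was -1.41 over the 9 highest-mean sets, against -0.03 over all genes, and -0.50 over all 23 sets.

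**Figure D3:**
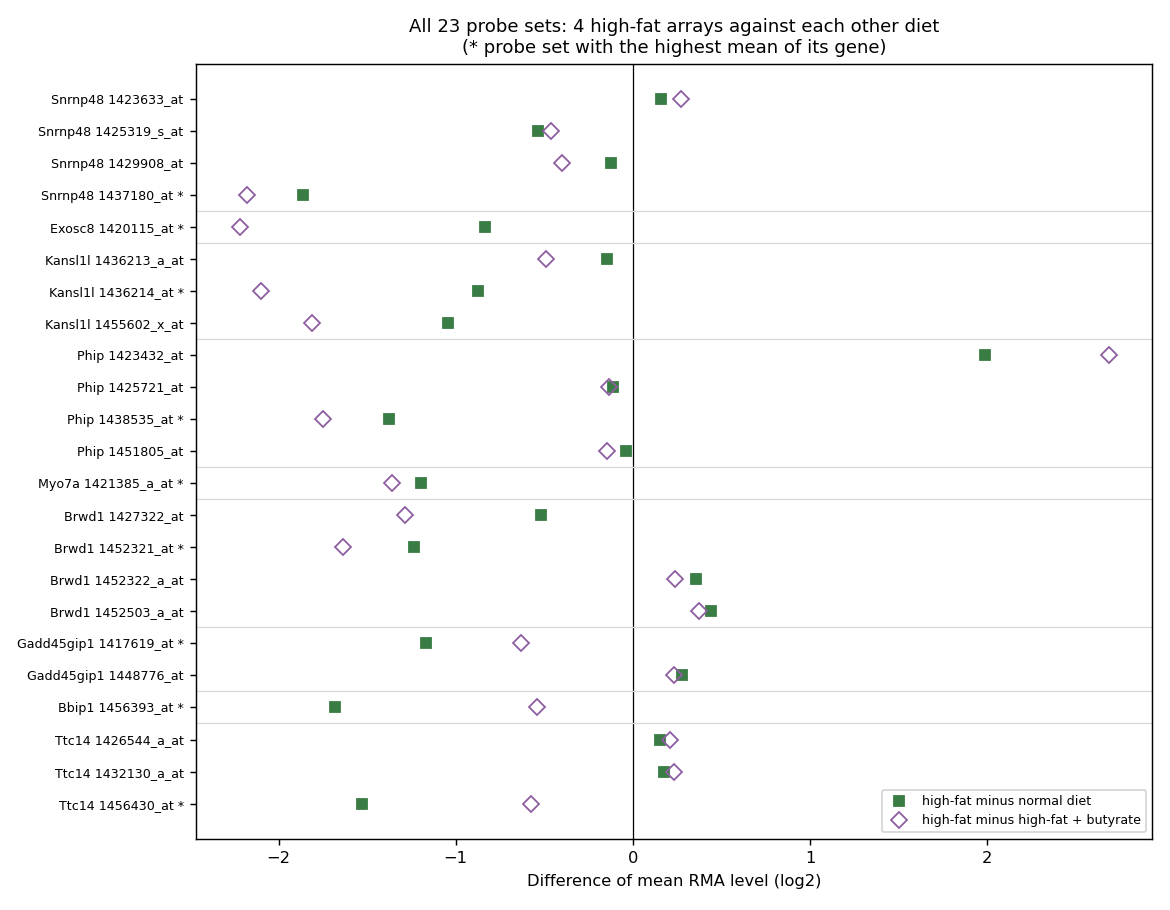
Difference of mean RMA level (log2) between the 4 high-fat arrays and the 5 normal diet arrays (squares) or the 4 butyrate arrays (diamonds) for all 23 probe sets, with a star at the highest-mean set of each gene. Starred sets lie between -0.54 and -2.22, while most other sets of the same genes lie nearer to 0. Also lower are Kansl1l 1455602_x_at (-1.04 and -1.81), Brwd1 1427322_at (-0.52 and -1.29) and Snrnp48 1425319_s_at (-0.54 and -0.46). Phip 1423432_at lies at 1.99 and 2.69.

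The order of the 3 diet means differed between members. Butyrate means exceeded normal diet means for Exosc8 (by 1.38), Kansl1l (1.23), Brwd1 (0.40), Phip 1438535_at (0.37), Snrnp48 (0.31) and Myo7a (0.16). They were below normal diet for Bbip1 (-1.14), Ttc14 (-0.96) and Gadd45gip1 (-0.54). Butyrate and normal diet arrays overlapped for Snrnp48, Phip, Brwd1 and Myo7a, and not for the other members. The share of all genes without overlap between these diets was not counted, so nothing is read from this division. In Exosc8, Kansl1l, Brwd1, Phip 1438535_at, Snrnp48 and Myo7a the order of the diet means was the reverse of that of the 18S control signal. It was highest with butyrate and lowest on high-fat diet. Of these genes, only Exosc8 and Kansl1l had no overlap between the arrays of any diets. Bbip1, Ttc14 and Gadd45gip1 were highest on normal diet. A link to the 18S signal was not tested. Pairwise r over the 13 arrays was above 0 for all 36 pairs of members, with a median of 0.68, and ranged from 0.15 (Exosc8 and Bbip1) to 0.96 (Exosc8 and Kansl1l). These correlations share the diet steps by which the members were picked and are given as a description.

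**Figure D4:**
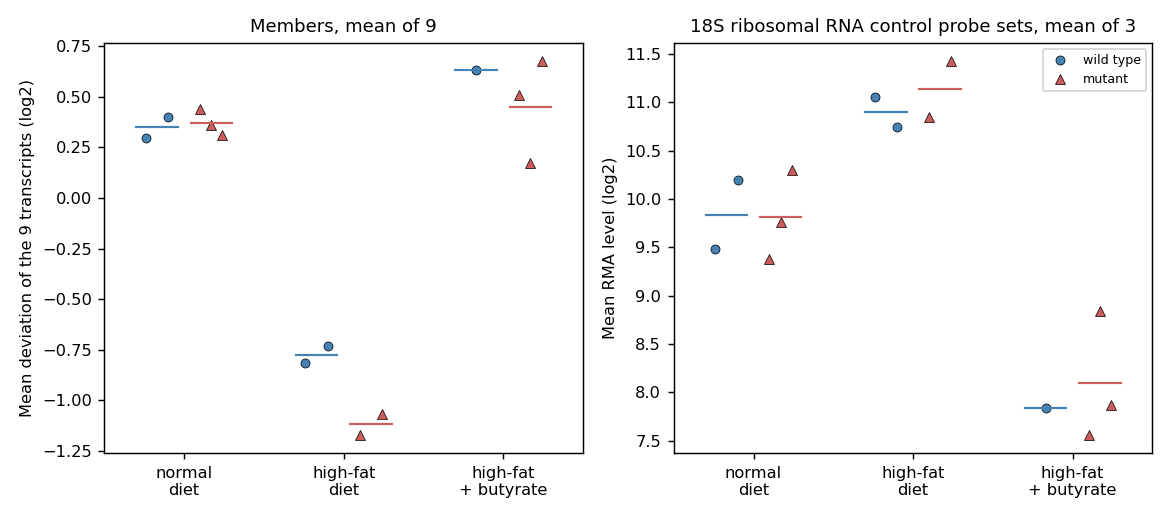
Left, mean deviation of the 9 highest-mean probe sets from their 13-array means (log2) on each array, by diet and genotype. Right, mean RMA level (log2) of the 3 control probe sets for 18S ribosomal RNA. Members read -1.17 to -0.73 on high-fat arrays, 0.30 to 0.44 on normal diet arrays and 0.17 to 0.68 on butyrate arrays, and the 18S control 10.75 to 11.42, 9.38 to 10.29 and 7.56 to 8.84.

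Within the high-fat diet, 2 mutant stood against 2 wild-type arrays, and the values again describe arrays on which the members were picked. Mutant means were below wild type for Myo7a (-1.93), Gadd45gip1 (-0.85), Phip 1438535_at (-0.57), Bbip1 (-0.34) and Kansl1l 1436214_at (-0.28). They were above for Ttc14 1456430_at (0.31), Exosc8 (0.25), Brwd1 1452321_at (0.20) and Snrnp48 1437180_at (0.11). For Exosc8 and Snrnp48 the arrays of the genotypes overlapped. How many of all probe sets separate 2 against 2 arrays was not counted, and no genotype effect is read from these values.

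Genotype was tested within the other diets by limma over all 22626 probe sets with Benjamini-Hochberg adjustment at 0.05. The members were picked against the levels of these arrays too, which favours genes that are even among them, and the high-fat arrays enter the estimate of spread in 3 of the 4 comparisons, so the counts below describe the members and are not independent of their choice. No probe set of the members passed in any of the 4 comparisons. On normal diet 0 of 23 differed between 3 mutant and 2 wild-type arrays (0.0133% of all probe sets did, a share that rests on 3 probe sets), and 2 had an unadjusted p under 0.05 (11.6% of all probe sets). The count of 3 became 313 without wild-type normal diet array 2 and 0 without any 1 of the 3 mutant normal diet arrays, and 55 when the 5 normal diet arrays were fitted alone. With butyrate 0 of 23 differed between 3 mutant arrays and 1 wild-type array (0% of all), and 4 had an unadjusted p under 0.05 (6.11%). Over both diets, with diet as a term and 6 mutant against 3 wild-type arrays, 0 of 23 passed (0% of all) and 0 had an unadjusted p under 0.05 (8.85%). The wild-type butyrate array has no replicate and was assumed to vary like the other groups.

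The estimates over both diets were small. The mutant minus wild-type difference was largest for Myo7a, at -0.30 ± 0.15 (SE, limma adjusted p = 0.601), and smallest for Snrnp48 1437180_at, at -0.00 ± 0.11. Kansl1l 1436214_at differed by 0.19 ± 0.18, Exosc8 by 0.13 ± 0.21, Brwd1 1452321_at by -0.22 ± 0.15, Ttc14 1456430_at by -0.18 ± 0.14 and Bbip1 by -0.17 ± 0.13. Brwd1 had the lowest unadjusted p within a single diet. With butyrate its difference was -0.63 ± 0.18 in 1452321_at and -0.57 ± 0.20 in 1427322_at, and that of Myo7a was -0.55 ± 0.22 (limma adjusted p = 0.810 for all 3). On normal diet the Brwd1 sets differed by 0.03 ± 0.15 and 0.40 ± 0.16 (adjusted p = 0.962 and 0.355) and Myo7a by -0.14 ± 0.17 (0.798). The difference between the 2 genotype effects on Brwd1, tested as a contrast, was -0.66 ± 0.23 and -0.97 ± 0.25 (adjusted p = 0.656 for both), and no member passed there (0 of 23, 0% of all, 2 with an unadjusted p under 0.05, 7.29% of all).

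The complexes and families to which the members belong were then compared between the 4 high-fat and the other 9 arrays. A list of SR splicing factors, CLK kinases and related proteins, to which no member belongs, was compared in the same way. Members were left out, and the highest-mean probe set of each gene was taken. This comparison moved much of the array: 20.3% of 12393 genes were lower and 13.3% higher by limma (over all probe sets 19.6% and 16.1%), with a median of -0.03. Of 120 measured genes in 8 lists, 74 were lower and 10 higher, and 22 of the lower ones came from the list without a member. The lists were chosen with earlier results of these data known, so their counts are not independent of the data. The lists differed widely from one another, as the plot by complex and family shows.

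Genes of RNA processing lay mostly on the lower side. Of 26 SR splicing factors, CLK kinases and related proteins, 22 were lower and 0 higher (median -0.74). The splicing regulator Rbm39 fell by 1.09 ± 0.09 (7.82 to 8.19 on high-fat arrays, 8.76 to 9.55 on the others, adjusted p = 4.32e-06), Luc7l2, a relative of a U1 particle protein of yeast, by 0.93 ± 0.08 (8.01 to 8.37 against 9.06 to 9.20), and the splicing factor Srsf6 by 0.74 ± 0.06 (9.37 to 9.66 against 10.17 to 10.32). The ranges of these 3 genes did not overlap. Of 6 genes of the minor spliceosome, partners of Snrnp48, 3 were lower and 0 higher (median -0.26). These were Rnpc3, the U11/U12 particle protein that binds U12 RNA (-1.26 ± 0.16, 4.24 to 4.59 against 4.94 to 6.16), Scnm1 (-0.68 ± 0.08) and Snrnp25, another U11/U12 protein (-0.57 ± 0.09). Of 11 genes of the RNA exosome and its cofactors 7 were lower and 0 higher (median -0.50). By smallest p these began with the ring subunit Exosc7 (-0.50 ± 0.06, 8.64 to 8.76 against 9.11 to 9.26), the nuclear helicase Mtrex (-0.64 ± 0.09) and the ring subunit Exosc9 (-0.56 ± 0.08).

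The large subunit of the mitochondrial ribosome, to which Gadd45gip1 belongs, had 34 of 47 genes lower and 2 higher (median -0.41). Mrpl42 fell by 0.83 ± 0.07 (9.13 to 9.53 on high-fat arrays, 9.91 to 10.27 on the others), Mrpl33 by 0.88 ± 0.08 and Mrpl41 by 0.78 ± 0.08. No high-fat array of Mrpl42 reached the range of the others. All 3 encode proteins of this subunit.

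Chromatin lists were mixed. Of 7 NSL complex genes 3 were lower and 1 higher (median -0.16). Ogt, the enzyme that attaches GlcNAc to nuclear and cytoplasmic proteins, fell by 1.22 ± 0.14 (8.26 to 8.78 against 9.15 to 10.39) and Kansl2 by 0.47 ± 0.09. Kansl1, the close relative of Kansl1l, rose by 0.76 ± 0.06 (8.67 to 8.84 against 7.86 to 8.09, adjusted p = 6.39e-06), opposite in direction to the Kansl1l values. Of 10 genes of the BRWD family and CRL4 ligase 2 were lower and 3 higher (median -0.00). The lower 2 were Ddb2, the damaged DNA binding subunit (-0.58 ± 0.12), and the scaffold Cul4b (-0.32 ± 0.07). Brwd3, the third of the family, was higher by 0.35 ± 0.10 (4.57 to 5.09 against 4.22 to 4.79, adjusted p = 0.0194). Its call was lost when array 1 of the wild-type high-fat group was left out (adjusted p = 0.0864), and likewise for array 1 of the mutant high-fat group (0.0658).

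Of 7 partners of myosin VII and proteins of brush border adhesion, 3 were higher, 0 lower and 4 not called (median 0.12). Cdhr5, a protocadherin that links microvilli, rose by 1.05 ± 0.07 (12.82 to 12.92 on high-fat arrays, 11.59 to 12.04 on the others), and the scaffold Ush1c by 0.45 ± 0.07 (10.39 to 10.47 against 9.85 to 10.20). Neither gene overlapped between the arrays compared. Villin (Vil1), which bundles actin in microvilli, was higher by 0.19 ± 0.07 (adjusted p = 0.0441). Vil1 missed the threshold without any 1 of the 4 high-fat arrays, either wild-type normal diet array, mutant normal diet array 1 or 3, or mutant butyrate array 1 (adjusted p from 0.0505 to 0.147). Vil1 is also 1 of the 8 enterocyte markers, of which 3 were higher and 0 lower, among them the aminopeptidase Anpep (1.25 ± 0.28, adjusted p = 0.00448). The part of this in the brush border values was not tested.

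Around Bbip1, 3 of 6 measured genes of the BBSome and its assembly were lower and 1 higher (median -0.11). Lztfl1, which regulates BBSome entry to cilia, was lower by -0.46 ± 0.12 (adjusted p = 0.0113) and the chaperonin-like Mkks by -0.33 ± 0.09 (adjusted p = 0.015), and the subunit Bbs9 was higher by 0.30 ± 0.10 (adjusted p = 0.0363). Each of these 3 calls was lost without some single array. Lztfl1 missed the threshold without wild-type or mutant high-fat array 2 (adjusted p = 0.0681 and 0.0608), and Mkks without wild-type high-fat array 1 or mutant high-fat array 2 (0.0708 and 0.0814). Bbs9 missed it without wild-type high-fat array 1 or 2, mutant high-fat array 1, wild-type normal diet array 1, mutant normal diet array 3, the wild-type butyrate array, or mutant butyrate array 1 or 3 (0.0529 to 0.171). The count of lower genes was 1 without wild-type high-fat array 1 or 2, or mutant high-fat array 2.

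**Figure D5:**
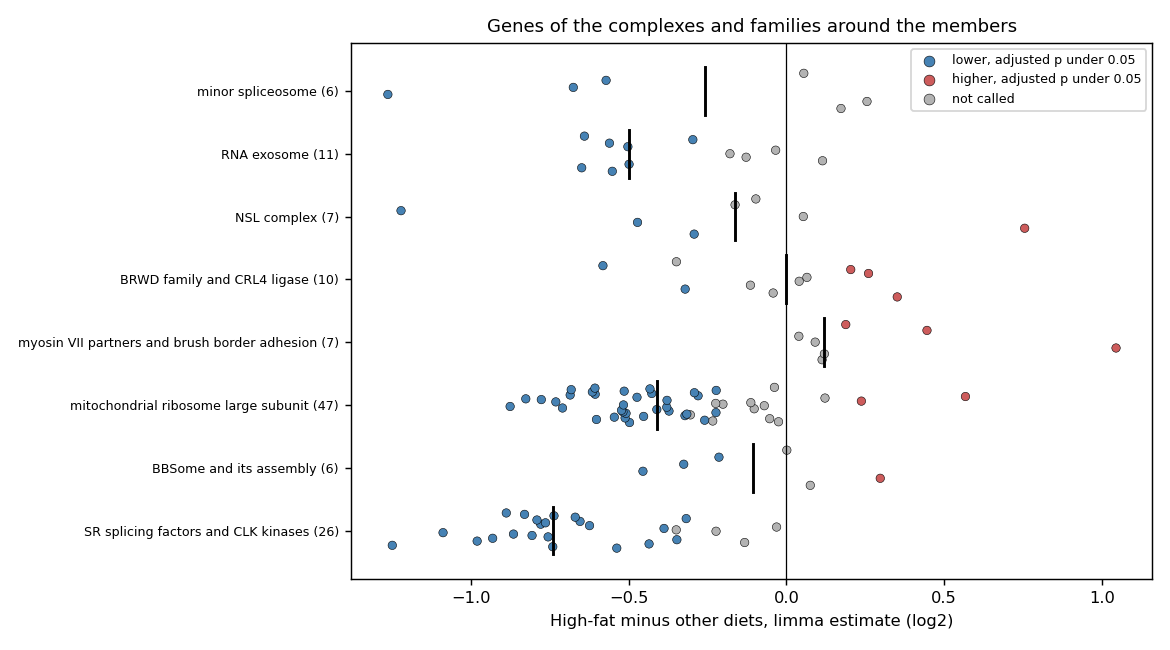
Limma estimate of the difference between the 4 high-fat and the other 9 arrays (log2) for each of 120 genes in 8 lists, with the number measured in brackets, points coloured by call at an adjusted p of 0.05 and a bar at each list's median. SR splicing factors and CLK kinases have 22 of 26 genes lower, and the myosin VII list 3 of 7 higher.

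The genes whose levels over the 13 arrays were most like the mean of the members were searched among 3157 genes with an SD of at least 0.3. These were the RNA helicase Ddx39b (r = 0.99), the Sm protein Snrpe (0.98), the mitochondrial elongation factor Gfm1 (0.98), the prefoldin subunit Vbp1 (0.97), the splicing factor Srsf5 (0.97) and Thoc1 (0.97), a subunit of the THO complex of RNA export. For Snrnp48 the nearest were Luc7l2 (0.99) and Impact (0.97), for Brwd1 Rbm39 (0.98) and Rexo4 (0.97), and for Kansl1l Bclaf1 (0.97) and Srsf10 (0.96). Exosc8 was most like Pigh (0.96) and Wac (0.95), and Phip 1438535_at most like Trpc2 (0.98) and Rbm26 (0.97). Myo7a had the loosest neighbours, Kcne3 (0.93) and Snrpg (0.91). The other 3 members had Rangrf (0.95) and Dctpp1 (0.94) for Gadd45gip1, Eef1d (0.96) and Mrpl52 (0.95) for Bbip1, and Ptafr (0.94) and Mrpl52 (0.93) for Ttc14. The probe set of Ddx39b ends in _x_at and those of Snrpe, Gfm1 and Snrpg end in _s_at, so their probes may bind other transcripts. Likeness here is Pearson's r over 13 arrays that share 3 array series and the diet steps by which the members were picked.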

How the data were processed

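Duodenal RNA on 13 arrays in 6 genotype-by-diet groups, labelled with a whole-transcript kit per the labels' protocols, was analysed. The deposited values are log2 levels made by the authors with Affymetrix Expression Console 1.1 and RMA, per the submitters' processing notes; the genome build was not given in the sources used here. Of 22690 probe sets, 64 controls were set aside, and 20380 had 1 symbol, 691 several and 1555 none in the platform annotation. No scanner files were used, so detection per probe set is unknown, and the number of arrays limits the precision. The design text speaks of mice, but no label ties each array to an animal of its own, and p-values then cover only the array-to-array spread, which may be technical. At most 408 probe sets had equal values to 3 decimals in any pair of arrays, so none was taken for a copy.

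R 4.3.3 and limma 3.58.1 (lmFit, eBayes with an intensity trend, two-sided) were run on all 22626 probe sets, with 13 arrays in 6 groups or 9 arrays with diet as a term, and tested on simulated data. Lists used the probe set with the highest mean of each gene. The members and lists were chosen with earlier results of these data known. Named genes were the members, in each list up to 3 passing genes with the smallest p, and the genes most alike by Pearson's r (6 for the mean of members, 2 for each member, predicted models left out). Alternatives were quantile normalization, leaving out probe sets under the 30th percentile, 1 probe set per gene, no trend, array weights, a replicate block, other models or arrays, and leaving out each array. Using normal diet or butyrate arrays alone for the lists was added after seeing the data.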

Additional observations from a re-analysis of the deposited data

How the results depend on the processing

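No probe set of the members passed in a genotype comparison under any alternative run, with adjusted p of 0.0838 or more. The number of probe sets called on the whole array for genotype on normal diet, 3 in all, was 1 with array weights, 0 with the replicate block and 55 with the 5 arrays compared alone, and ranged from 0 to 313 when 1 array was left out (313 without wild-type normal diet array 2, 145 without mutant butyrate array 2 and 51 without wild-type normal diet array 1). The replicate numbers were not taken as pairs. Same-numbered arrays did not uniformly deviate together: correlations ran from -0.35 to 0.44, with 6 of 21 above 0.1. In groups of 2 arrays the deviations mirror each other, so these values are not independent and do not settle whether arrays were paired. The block moved the count for high-fat arrays from 8060 to 6728 and the companion genes lower there from 74 to 70. With 1 array left out, 0 to 3 probe sets were called for genotype without high-fat arrays, 0 to 9 for the difference between genotype effects, 0 for genotype on butyrate and 6327 to 8714 for high-fat arrays. Testing 1 probe set per gene gave 4158 of 12393 for the last, where fewer features were tested. The members' median difference of -1.41 was -0.64 with all probe sets of each gene averaged, -0.25 with the lowest-mean probe set and -1.64 against butyrate arrays alone, and -1.46 to -1.28 with 1 array left out. Companion genes lower on high-fat arrays numbered 64 to 79 with 1 array left out, and 66 to 79 under the other alternatives. Of 24 named companion genes 5 (Brwd3, Vil1, Lztfl1, Mkks and Bbs9) lost their call under at least 1 alternative, and none reversed. Against normal diet arrays alone Mkks (adjusted p = 0.216) and Bbs9 (0.433) lost it, and against butyrate arrays alone Brwd3 (0.0825) and Vil1 (0.362). The cause was not tested. Leaving out the single wild-type butyrate array allowed no test of genotype on butyrate.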
